A study of Mus musculus with 8 samples.

Results

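The loci described here are those of 5 transcription factors of the SOX family, Sox10, Sox9, Sox5, Sox6 and Sox2, in ATAC-seq data of mouse melanoma cell lines. ATAC-seq uses the Tn5 transposase to insert sequencing adapters into open DNA, so the count of a region measures its accessibility. A region of the deposited count table was taken for a gene when it lay inside the gene on GRCm38, or within 50 kb of it with that gene as the protein-coding gene with the nearest end. This gave 171 of the 148664 regions of the table. Sox10 had 8 regions, Sox9 had 8, Sox5 had 95, Sox6 had 53 and Sox2 had 7. Of these, 166 passed the filter on low counts, namely all regions of Sox10 and Sox9, 94 of Sox5, 50 of Sox6 and 6 of Sox2.

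The samples were 8 libraries of 4 lines, with 2 replicate libraries per line and 50000 cells per library. Lines 112 and 113 carried the STAT3 knockout (Stat3∆ in the protocols), and lines 119 and 73 were the wild-type controls (Stat3fl, the allele with loxP sites not deleted). The lines were grown from lymph node cell suspensions of diseased mice whose cutaneous melanoma began at about 25 to 30 weeks of age. The protocols call each line a primary pool, while a label calls it a clone. The titles add p18 to line 112, p44 to line 113, p14 to line 119 and p68 to line 73, and no source used here explains these tags. No group received a drug or other agent per the labels, and the Cre driver of the deletion is not given in the sources used here.

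SOX proteins bind DNA through a high mobility group domain that recognises a short core sequence and bends the helix. Sox10 and Sox9 belong to the SoxE group. Sox10 is required for the neural crest cells that give rise to melanocytes and acts on Mitf and on pigment genes such as Dct, while Sox9 is best known for cartilage and testis formation and is also expressed in skin and in melanoma. Sox5 and Sox6 belong to the SoxD group, which has no transactivation domain of its own and binds as dimers through a coiled coil. In melanocytes Sox5 is known to modulate the activity of Sox10. Sox2, of the SoxB1 group, maintains stem cells and neural progenitors and is not a usual factor of mature melanocytes.

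The promoters of these genes were read from RefSeq models on GRCm38.p6, as the 250 bases before each transcription start. Of the 5 genes, Sox5, Sox6 and Sox2 matched, with 8 promoters in all. Of these, 2 lay wholly inside a region of the count table, an internal promoter of Sox6 at chr7:115824711-115824960 (minus strand) and that of Sox2 at chr3:34649745-34649994 (plus strand). These 2 sequences are shown because the regions that hold them had some of the largest differences between lines. Capitals mark matches to the motifs searched.

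Sox6: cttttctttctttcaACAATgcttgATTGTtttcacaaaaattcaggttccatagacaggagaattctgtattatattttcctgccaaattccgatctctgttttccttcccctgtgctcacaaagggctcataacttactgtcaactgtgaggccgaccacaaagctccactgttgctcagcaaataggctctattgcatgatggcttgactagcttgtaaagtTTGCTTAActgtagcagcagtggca
Sox2: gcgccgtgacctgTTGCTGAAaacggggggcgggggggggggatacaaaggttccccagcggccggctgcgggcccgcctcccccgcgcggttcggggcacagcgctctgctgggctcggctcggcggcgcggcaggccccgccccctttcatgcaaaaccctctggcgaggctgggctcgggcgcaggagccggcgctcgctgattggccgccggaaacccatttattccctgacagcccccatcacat

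The motifs were searched on both strands: the SOX core ACAAT, AP-1 TGANTCA, the M-box core CATGTG, STAT TTCNNNGAA, C/EBP TTGCNNAA, TFAP2 GCCNNNGGC and TEAD GGAATG. The Sox6 sequence holds the SOX core on its own strand at bases 16 to 20 and on the other strand at bases 26 to 30, an opposed pair with 5 bases between. Among 32851 promoters of the same length, 42 (0.128%) held an opposed pair of SOX cores 3 to 5 bases apart, and 27.7% held at least 1 core. The C/EBP letters were found at bases 226 to 233 of the Sox6 sequence and at bases 14 to 21 of the Sox2 sequence, and 9.56% of promoters held them. The Sox6 sequence had a GC content of 41.6% and the Sox2 sequence 72.0%. Neither sequence held the letters of AP-1 (in 6.75% of promoters), the M-box core (12.3%), STAT (7.02%), TFAP2 (13.7%) or TEAD (12.6%). A match is a description of letters and not a bound site.

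Over the whole series, the library totals ranged from 2697546 to 7464336 counts. The replicates of a line differed from each other by more than counting error, with a chi-square per degree of freedom from 1.07 in line 119 to 1.98 in line 112. The labels call them biological replicates without naming separate cultures, so p-values between lines measure the spread between these libraries, which may be technical. Accessibility at Stat3 was 84.5 to 95.4 CPM (counts scaled to library size, summed over 12 regions) in the knockout libraries and 59.1 to 72.9 CPM in the wild type. These regions do not check the deletion. The Y-linked gene Ddx3y was at 0 counts in every knockout library and at 13.9 to 19.4 CPM in the wild type, so genotype and presence of this Y signal cannot be told apart. Pigment cell identity was checked on 10 melanocyte markers, all of which had regions. Their summed accessibility was 1124 to 1519 CPM in the knockout and 453 to 668 CPM in the wild-type libraries. Totals per gene and single regions were each scaled by their own TMM factors, so the CPM of regions do not add up to the totals. Between these scalings, log2 differences of totals are higher on the locus scaling by 0.36 for lines 112 and 119 against line 73, by 0.31 for line 112 against 113 and by 0.05 for line 113 against 73, lower for line 113 against 119 (-0.31) and equal for line 112 against 119. Totals refitted with the factors of the regions are called region-scaled below. In such bulk libraries, fewer cells of a type and less accessible DNA per cell cannot be told apart.

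**Figure D1:**
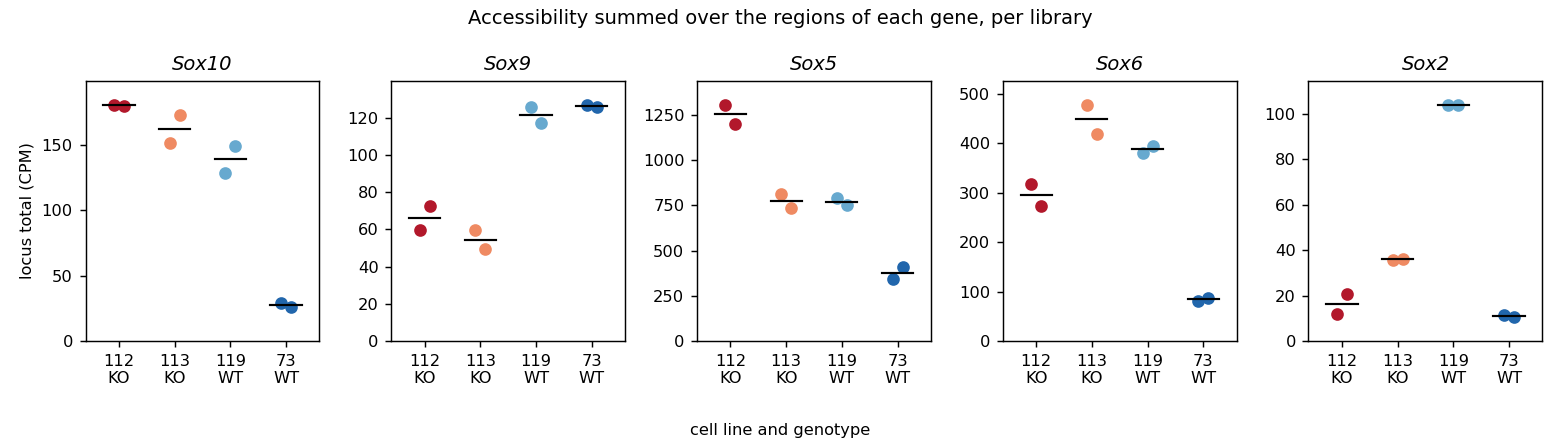
Counts summed over the regions of each gene (CPM with library sizes from the gene sums, linear axes from 0), with 1 point per library and a bar at the mean of each line (KO, STAT3 knockout; WT, wild type). Line 73 is far below the other lines at Sox10 and Sox6, both wild-type lines are above both knockout lines at Sox9, and line 119 stands highest at Sox2.

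Sox10 was accessible in 3 of the 4 lines and low in line 73. The total of its regions was 181 and 180 CPM in line 112, 152 and 173 CPM for line 113, and 129 and 149 CPM in line 119. In line 73 it was 29.1 and 26.1 CPM, below every other library. The log2 fold change to line 73 was 2.7 (SE 0.14) for line 112, 2.55 (SE 0.14) for line 113 and 2.33 (SE 0.14) for line 119, with adjusted p-values of edgeR's quasi-likelihood test from 1.64e-13 to 7.97e-13. Among the higher lines, 112 and 119 differed (log2 0.38, SE 0.11, adjusted p 0.00827), while 112 and 113 (adjusted p 0.291) and 113 and 119 (0.0872), neighbours in that order, did not differ beyond their spread. The comparison of 113 and 119 passed with total counts (0.27, SE 0.11, adjusted p 0.0418), with the chromosome offset (0.26, SE 0.11, 0.0478) and when region-scaled (0.53, SE 0.14, 0.000414). Region-scaled, the line means were 144, 160, 111 and 28.2 CPM in lines 112, 113, 119 and 73, so that line 113 came first (112 against 113, -0.15, SE 0.14, 0.348). The difference of 112 and 119 did not pass after a regional offset (log2 0.15, SE 0.12, adjusted p 0.322) or without replicate 1 of line 119 (0.22, SE 0.16, 0.309).

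The low place of line 73 held along the locus, while line 112 was highest at 4 regions and line 113 at the other 4. Sox10 itself lies at chr15:79154913-79164490, and 1 of its 8 regions lies in part inside the gene. Line 73 was the lowest line at all 8 regions. Over all tested regions it was lowest at 30.8%, and lines 112 and 113 were highest at 15.9% and 26.5%. The region at the gene end (chr15:79164212-79164851) had 22.1 and 21.9 CPM in line 112, 19.5 and 21.3 for line 113, 13.7 and 14.9 in line 119, and 4.10 and 2.78 for line 73. At 901 bp from the end, the strongest region within 1 kb outside it (79165391-79166053) had 23.7 and 20.6 CPM in line 112, 27.4 and 28.3 for line 113, 16.0 and 19.1 in line 119, and 2.56 and 3.61 for line 73. At both regions the libraries of line 73 lay below all others, without overlap.

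The largest difference at Sox10 was 28225 bp from the gene end. The region 79192715-79193806 had 27.2 and 25.5 CPM in line 112, 37.8 and 35.6 for line 113, 24.8 and 26.5 in line 119, and 4.61 and 2.22 for line 73. Line 113 exceeded line 73 there by 3.4 on the log2 scale (SE 0.28, edgeR adjusted p 9.46e-16). The highest region of line 73 was another, at 79175803-79177365, 11313 bp from the end. It had 7.68 and 8.61 CPM in line 73, against 19.5 to 28.4 CPM in the other 6 libraries. In the authors' peak calls, line 73 had a peak at 0 of the 8 regions, against 43.3% of all tested regions. Of the 8, 5 (62.5%) had a peak in every line but line 73, a pattern found at 6.48% of all tested regions.

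By the test between lines, all 8 Sox10 regions were higher in line 112 than in line 73 (median log2 2.54), where 23.8% of all tested regions were called higher and 26.1% lower. All 8 were also higher in line 113 than in line 73 (median 2.48), against 25.8% of regions called higher and 26.5% lower. Line 119 exceeded line 73 at 6 of 8 (median 1.99), against 27.5% higher and 29.4% lower. Between the knockout lines 0 of 8 were called by edgeR, with 1 at an unadjusted p under 0.05, where 8.24% of all regions were higher and 15.6% lower in line 112. Line 112 exceeded line 119 at 2 of 8, against 22.2% higher and 23.5% lower over all regions. Line 113 exceeded line 119 at 5 of 8, against 30.2% higher and 28.8% lower.

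Sox9 had a different arrangement, with both wild-type lines above both knockout lines, while at Sox10 only line 73 was low. Its total was 59.5 and 72.8 CPM in line 112, 59.8 and 49.2 for line 113, 126 and 117 in line 119, and 127 and 126 for line 73. All 4 wild-type libraries lay above all 4 knockout libraries. Line 113 fell below line 73 by 1.21 on the log2 scale (SE 0.13, edgeR adjusted p 2.17e-08) and below line 119 by 1.16 (SE 0.13, 4.51e-08). Line 112 fell below line 73 by 0.95 (SE 0.13, 1.98e-06) and below line 119 by 0.90 (SE 0.13, 4.31e-06). Neither the knockout lines (log2 0.26, SE 0.14, adjusted p 0.14) nor the wild-type lines (-0.05, SE 0.12, 0.732) differed beyond their spread on the locus scaling. These values depended on the setting. Line 119 was below line 73 when region-scaled (-0.41, SE 0.14, adjusted p 0.00642) and above it after a regional offset (0.40, SE 0.12, 0.0049). Line 112 exceeded line 113 without replicate 1 of line 112 (0.44, SE 0.16, 0.0265), while the region-scaled value was -0.04 (SE 0.16, 0.828).

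The strongest Sox9 region was the one over the start of its coordinates, chr11:112781430-112783699. Sox9 lies at chr11:112782210-112787757. This region had 34.0 and 34.2 CPM in line 112, 51.0 and 38.5 for line 113, 62.8 and 61.8 in line 119, and 90.1 and 88.1 for line 73, with a peak call in all 8 libraries. The lines did not overlap, and line 112 was lower than line 73 by a log2 of -1.39 (SE 0.17, adjusted p 7.26e-10). It differed between the wild-type lines too (log2 -0.52, adjusted p 0.00366), though not between the knockout lines (-0.39, 0.0948). At gene-end regions the median for line 119 against 73 was -0.70 over all chromosomes and -0.68 within 5 Mb of Sox9. For line 112 against 113 these medians were -0.44 and -0.15, and for line 112 against 73 they were -0.50 and -0.62. The difference between the wild-type lines was thus no larger than the median of gene ends. The 7 other regions were weaker and were not alike in their lines.

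At 3 distal Sox9 regions a single wild-type line was high. The region 23733 bp below the gene (112757928-112758477) had 10.5 and 9.72 CPM in line 73 and 0.169 to 1.54 CPM in the other 6 libraries. At 36330 bp above the gene, 112824087-112824652 had 12.8 and 10.6 CPM in line 73, 3.36 and 3.21 in line 119, and 0.906 to 3.39 in the knockout libraries. In contrast 112811426-112811994, 23669 bp above the gene, had 17.1 and 16.4 CPM in line 119, 4.10 and 1.67 in line 73, and 1.81 to 4.62 in the knockout libraries. The first pair of these regions was high in line 73 and the last in line 119. Another, 112794653-112795208, had 7.11 and 5.91 CPM in line 119 and 3.33 and 6.39 in line 73, against 0.726 to 1.85 CPM in the knockout libraries. Of the 8 Sox9 regions, 6 (75.0%) had peak calls in wild-type lines only, where 45.0% of all tested regions had that pattern. Line 113 was lower than line 73 at 6 of 8 and lower than line 119 at 5 of 8, with 0 higher in either, where 26.5% and 28.8% of all tested regions were lower and 25.8% and 30.2% higher. Line 112 was lower than line 73 at 4 of 8 and higher at 1, against 26.1% and 23.8%. Between the wild-type lines, line 119 was lower at 4 and higher at 1, against 29.4% and 27.5%.

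**Figure D2:**
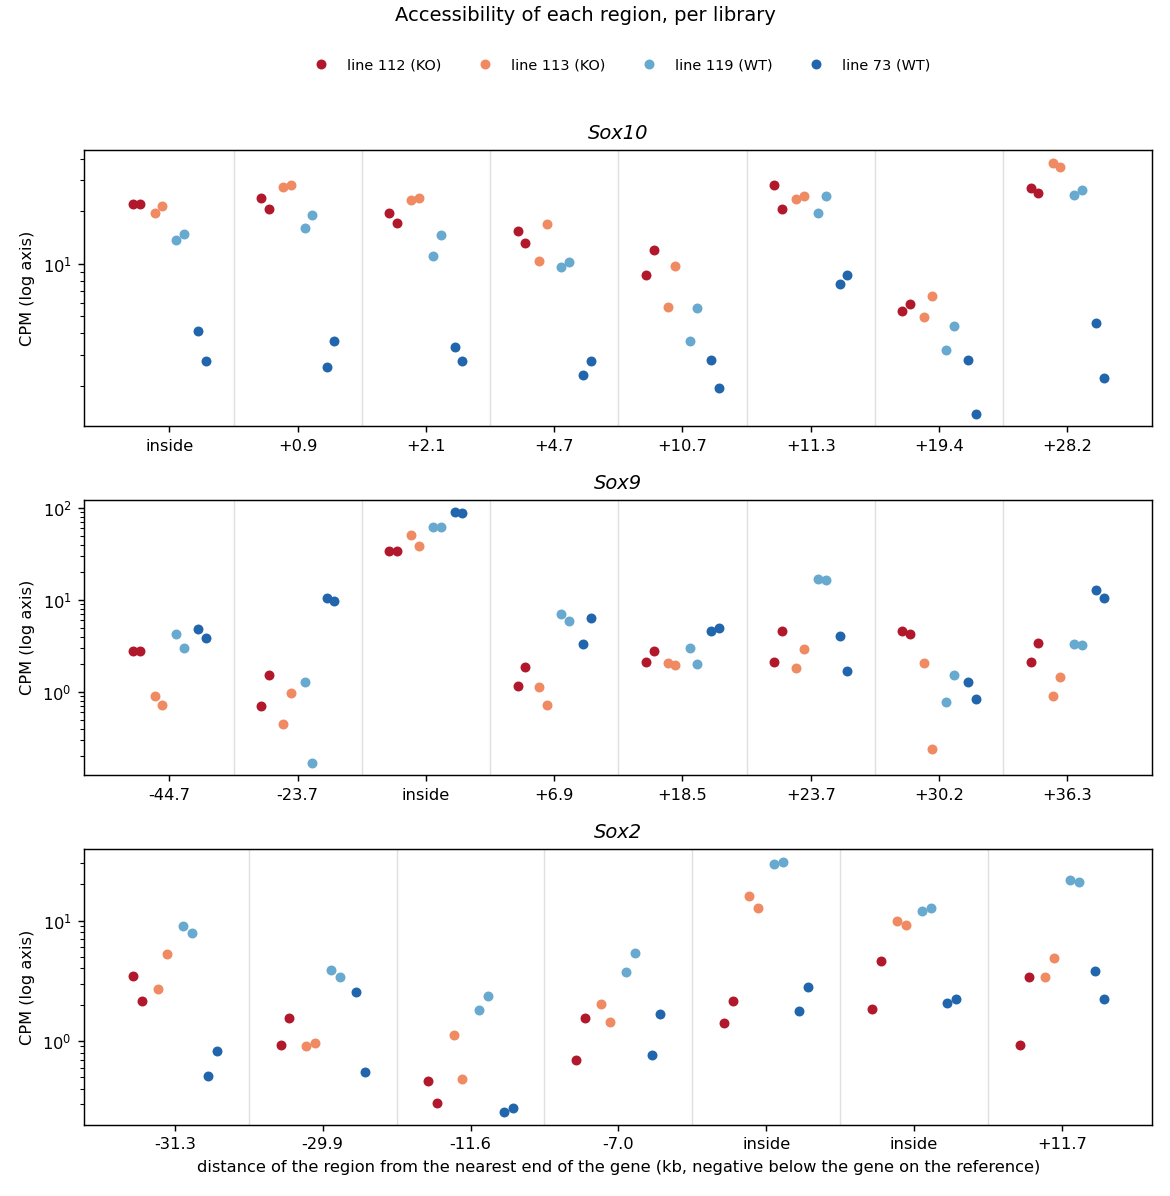
Accessibility (CPM, log axis) of every region of Sox10, Sox9 and Sox2 in each library, ordered by position and labelled with the distance from the nearest end of the gene in kb. At Sox10 the libraries of line 73 are lowest at all 8 regions, at Sox9 the region inside the gene rises from line 112 to line 73 while some distal regions are high in only 1 line, and at Sox2 line 119 is highest.

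The balance of Sox10 and Sox9 was compared as the log2 ratio of their totals within each library, which does not depend on the scaling of libraries. The ratio was 1.60 and 1.3 in line 112, 1.34 and 1.81 for line 113, 0.03 and 0.35 in line 119, and -2.12 and -2.27 for line 73. The line means were 1.45 ± 0.209, 1.58 ± 0.333, 0.19 ± 0.226 and -2.19 ± 0.104 (SD, n = 2 libraries each), a span of 3.77 on the log2 scale or 13.6-fold. The knockout lines overlapped each other, line 119 lay below them with near equal totals, and line 73 lay below line 119. An exact permutation test of the difference between lines gave p 0.019 (two-sided, all 105 assignments of 8 libraries to lines, smallest possible p 0.00952). Between genotypes, with 2 lines against 2, no test could go below an exact p of 0.333. Per kb of region, the accessibility of Sox10 was 28.6, 25.8, 22.1 and 4.38 CPM per kb in lines 112, 113, 119 and 73. That of Sox9 was 10.7, 8.80, 19.6 and 20.4 CPM per kb. On the per kb scale Sox10 was thus above Sox9 in the knockout lines, near it in line 119 and below it in line 73. The span was 3.98 after a chromosome offset and 4.15 after a regional offset.

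**Figure D3:**
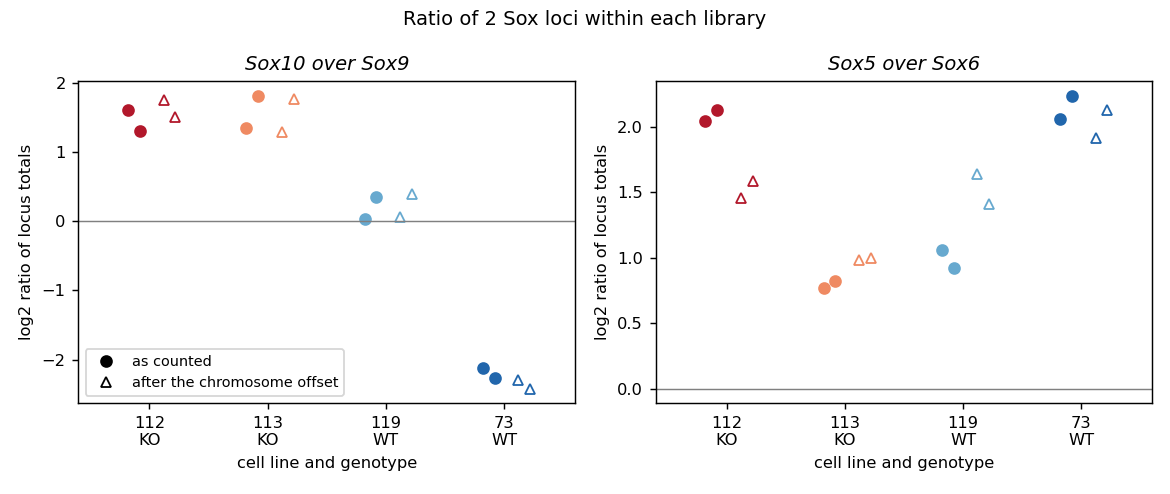
Log2 ratio of Sox10 over Sox9 (left) and of Sox5 over Sox6 (right) in each library, as counted (filled circles) and after an offset for the median level of the weak regions of the chromosome (open triangles). Sox10 over Sox9 falls from above 1 in the knockout libraries to below -2 in line 73 on both scales, while the Sox5 over Sox6 value of line 112 moves from 2.09 to 1.52 with the offset.

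Sox5 had the largest total of the 5 genes, spread over a gene of 953863 bp (chr6:143828425-144782287) with 91 of its 95 regions inside. Its total was 1307 and 1200 CPM in line 112, 814 and 736 for line 113, 792 and 750 in line 119, and 341 and 410 for line 73. Line 73 was lowest, line 112 highest, and lines 113 and 119 overlapped (log2 0.01, SE 0.10, adjusted p 0.955), though line 113 was higher when region-scaled (0.32, SE 0.13, 0.0241). Lines 112, 113 and 119 exceeded line 73 by 1.74, 1.05 and 1.04 on the log2 scale (SE 0.10 each, edgeR adjusted p at most 4.73e-09), and line 119 by 0.68 when region-scaled (SE 0.13, 5.14e-06). After offsets for the level of the chromosome these differences to line 73 were 1.02, 1.1 and 1.46, so that the direction held but the order of the lines did not.

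The high position of line 112 at Sox5 moved with the level of its surroundings. Line 112 exceeded line 113 by 0.69 (SE 0.10, adjusted p 6.92e-06; region-scaled 0.39, SE 0.13, 0.00813) and line 119 by 0.70 (SE 0.10, 2.45e-06) as counted, but with the chromosome offset these values were -0.07 (SE 0.10, 0.594) and -0.44 (SE 0.10, 0.00124), the latter in the opposite direction. With the offset of 10 Mb windows they were -0.45 (SE 0.10, 0.00127) and -1.16 (SE 0.10, 1.26e-10). That window includes the Sox5 regions themselves. Relative to the mean of the lines, the weak regions of chromosome 6 stood at a log2 of 0.64 and 0.65 in the libraries of line 112 and at -0.53 and -0.45 in those of line 119. At 70 regions of gene ends within 5 Mb of Sox5, the median log2 difference of line 112 to line 113 was 0.67, against -0.44 over 17988 gene-end regions of all chromosomes.

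Individual Sox5 regions differed far more than the surroundings did. One of the 3 with the smallest p of any difference between lines (144056581-144057206, inside the gene) had 49.1 and 34.5 CPM in line 112, 40.8 and 32.9 for line 113, 10.9 and 11.5 in line 119, and 0.768 and 2.22 for line 73. Line 112 exceeded line 73 there by 4.82 (SE 0.34, edgeR adjusted p 3.08e-17), and the order was knockout lines, line 119, line 73 without overlap across genotypes. The strongest Sox5 region, 144208938-144211219, showed the same order with 80.1 and 76.3, 66.4 and 48.4, 22.6 and 18.7, and 8.96 and 11.4 CPM in lines 112, 113, 119 and 73. So did 144721398-144721993, with 38.6 and 24.6, 32.2 and 24.2, 6.46 and 6.25, and 0.768 and 1.39 CPM. The strong region 144264201-144265476 had 27.8 to 45.2 CPM in the knockout libraries, 16.5 and 18.9 in line 119 and 2.56 and 5.28 for line 73. The strong region 144166011-144166841 had a peak call in all 8 libraries and differed less. It had 37.2 to 62.1 CPM in the knockout libraries, 30.5 and 27.0 in line 119 and 18.4 and 23.3 in line 73, and line 112 exceeded line 73 by 1.27 (SE 0.21, adjusted p 7.56e-07) as counted but by 0.10 (SE 0.22, 0.716) with the regional offset.

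At other Sox5 regions both wild-type lines were near the floor. At 144098100-144098648 the knockout libraries had 28.2, 12.3, 13.4 and 9.92 CPM and the wild-type libraries 0.517, 0.844, 0.512 and 0.833 CPM. At 144042963-144043541 the knockout libraries had 11.6, 9.85, 17.7 and 14.3 CPM, against 1.29, 0.844, 1.02 and 0.833 CPM. The groups did not overlap at either region, and these were the 2 Sox5 regions with the smallest p of the genotype test. Peaks in knockout lines only were called at 22 of 94 Sox5 regions (23.4%), against 10.7% of all tested regions. Peaks in wild-type lines only were called at 29 of 94 (30.9%), against 45.0%.

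Sox5 also held regions that were high in 1 or both of the wild-type lines. These examples were chosen after their values were seen. The region 144670351-144671166 was the highest Sox5 region of line 119, with 38.1 and 44.4 CPM, against 12.3 and 12.3 in line 112, 22.4 and 12.6 for line 113 and 4.86 and 8.61 in line 73. The highest of line 73 was 144074720-144075826, with 30.0 and 29.4 CPM, close to line 112 (29.1 and 20.9, adjusted p 0.376) and above line 119 (12.7 and 11.5, adjusted p 1.44e-06). At 144688971-144689530 line 119 had 9.95 and 8.78 and line 73 had 9.99 and 14.2 CPM, against 2.79 and 3.39 in line 112 and 0.680 and 0.726 for line 113. The region at the outermost start of the gene (144781351-144782601) had a peak call in all 8 libraries and 12.0 to 27.7 CPM, so that the lines that differed inside the gene were closer at its start.

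Counted over the gene, Sox5 regions were higher in line 112 than in line 73 at 60 of 94 and lower at 7, and higher in line 113 than in line 73 at 45 and lower at 20. Line 119 exceeded line 73 at 30 and was lower at 11. Over all tested regions the shares higher and lower were 23.8% and 26.1% for line 112, 25.8% and 26.5% for line 113 and 27.5% and 29.4% for line 119. These splits kept their direction with the chromosome offset, at 47 and 13, 46 and 19, and 36 and 6. The comparisons of line 112 with the lines above line 73 did not. Line 112 against line 113 gave 39 higher and 4 lower as counted, 8 and 19 with the chromosome offset and 1 and 36 with the regional offset. Line 112 against line 119 gave 56 and 10, 29 and 29, and 9 and 47. Line 113 against line 119 gave 40 and 24, 28 and 32, and 26 and 38. The shares over all regions as counted were 8.24% and 15.6%, 22.2% and 23.5%, and 30.2% and 28.8%. All shares in this paragraph are from the fit without an offset, and those with an offset are not given here. The direction of these 3 comparisons at Sox5 therefore depended on the offset.

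**Figure D4:**
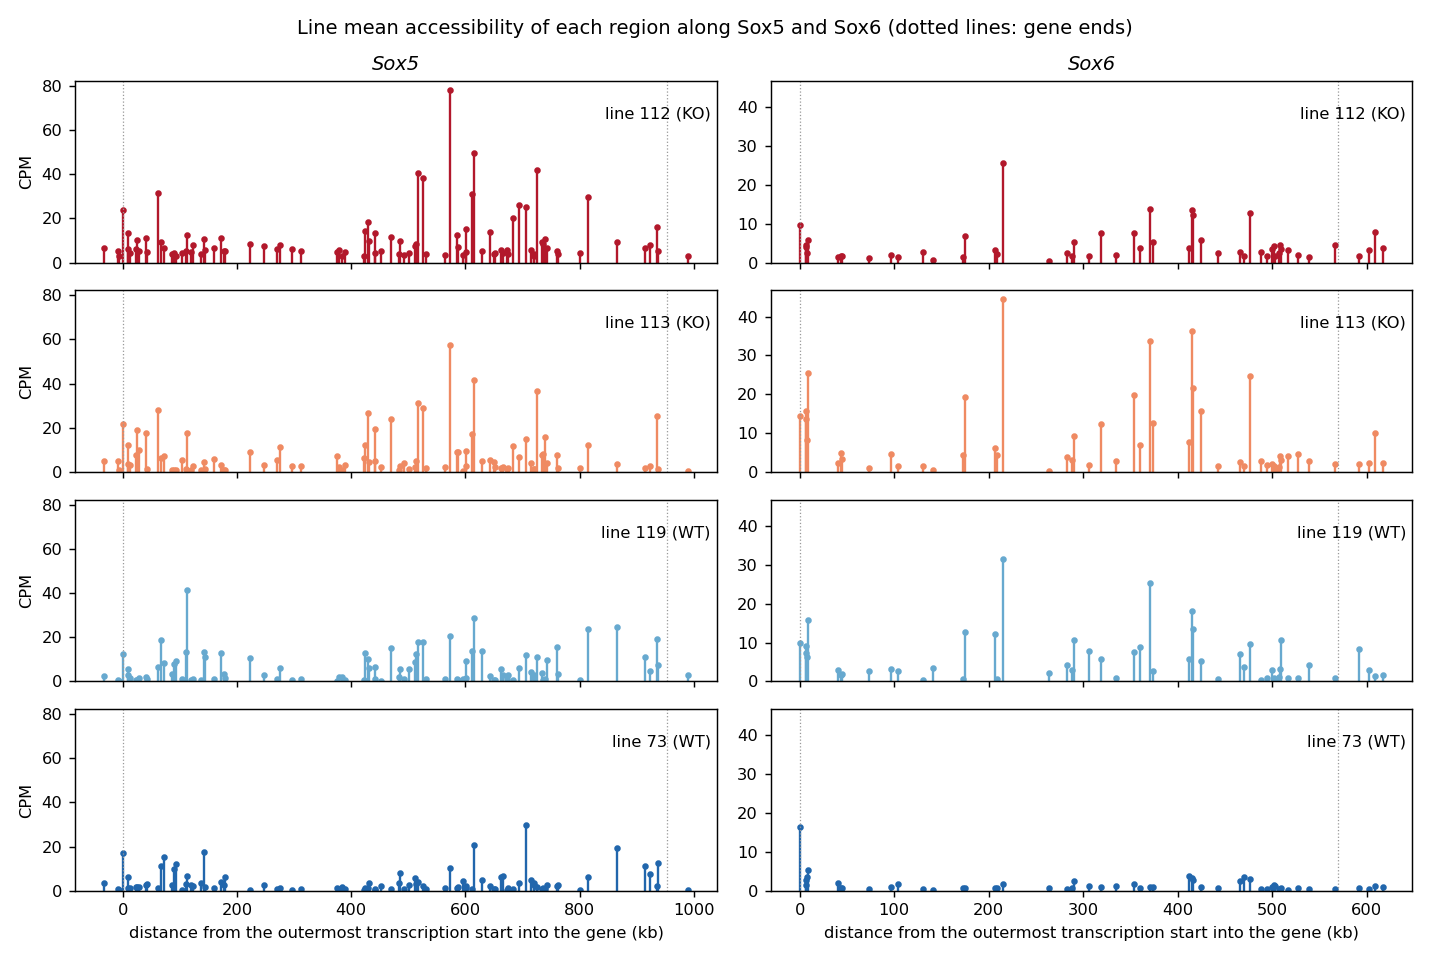
Mean accessibility of each region in each line (CPM, linear axes from 0, 1 scale per gene) along Sox5 and Sox6, by the distance in kb from the outermost transcription start into the gene, with dotted lines at the gene ends. In Sox5 the region of 78.2 CPM in line 112 is the tallest, and in Sox6 line 73 keeps signal near the outermost start while the internal regions are low.

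Sox6 was low in line 73 except near the outer end of the gene, and highest in line 113. Its total was 317 and 273 CPM in line 112, 478 and 418 for line 113, 381 and 395 in line 119, and 81.5 and 86.9 for line 73. Lines 113, 119 and 112 exceeded line 73 by 2.41 (SE 0.11), 2.21 (SE 0.11) and 1.81 (SE 0.12) on the log2 scale, with edgeR adjusted p at most 6.88e-12. Line 112 fell below line 113 by 0.60 (SE 0.10, adjusted p 8.78e-05) and below line 119 by 0.39 (SE 0.10, 0.00309), while 113 and 119 did not differ beyond their spread (0.21, SE 0.10, 0.0794). The last comparison passed with total counts (0.25, SE 0.1, adjusted p 0.028) and when region-scaled (0.52, SE 0.13, 0.000376), and line 112 was then below line 113 by a log2 of -0.9 (SE 0.13, 6.64e-08). With the chromosome offset the differences of line 112 to lines 113 and 119 were -0.61 and -0.42 and kept their calls. The gene spans chr7:115470872-116040776, and 49 of its 53 regions lie inside.

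The strongest Sox6 region held the internal promoter whose sequence with the opposed SOX cores is given above. This region (115824544-115825767) had 31.9 and 19.1 CPM in line 112, 50.1 and 38.9 for line 113, 29.5 and 33.3 in line 119, and 2.30 and 1.39 for line 73. Line 113 exceeded line 73 by 4.56 (SE 0.32, adjusted p 3.68e-18), and the libraries of line 73 lay below all others. The region 115669084-115670078 had the largest fold difference among the named Sox6 regions, with 15.4 and 12.0, 36.2 and 31.0, 25.2 and 25.3, and 1.54 and 0.556 CPM in lines 112, 113, 119 and 73 (113 against 73, 4.95, SE 0.36, 1.79e-17). At 115624683-115625430 the values were 17.7 and 9.23, 38.1 and 34.8, 17.2 and 18.9, and 3.33 and 3.06 CPM.

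The outer end of the gene was different. At 116039475-116040615, which ends 161 bp inside the outermost start and was chosen after its values were seen, line 73 was the highest line with 15.1 and 17.5 CPM. Line 113 had 14.7 and 13.8, line 119 had 11.1 and 8.95 and line 112 had 10 and 9.54. Line 112 lay below line 73 there by a log2 of -0.73 (SE 0.27, adjusted p 0.023), and line 119 by -0.69 (adjusted p 0.0173). Gene-end regions of all chromosomes had medians of -0.50 and -0.70 in these comparisons, and -0.59 in both within 5 Mb of Sox6. Such values are therefore not particular to Sox6. Line 73 had a peak call in at least 1 library at 3 of 50 Sox6 regions, against 43.3% of all tested regions. At 116031633-116032697, which lies 586 bp from another promoter of the gene, line 113 had 27.4 and 23.5 CPM, line 119 had 16.0 and 15.7, line 112 had 3.96 and 7.39, and line 73 had 5.63 and 5.28. Here line 112 and line 73 overlapped, both below the others.

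Over the 50 tested Sox6 regions line 73 was lowest at 37 and line 113 highest at 27, where they were so at 30.8% and 26.5% of all tested regions. Line 113 exceeded line 73 at 35 of 50 with 0 lower (median log2 2.27). Line 119 exceeded it at 29 with 1 lower (median 1.59), and line 112 at 28 with 1 lower (median 1.80). The shares over all regions were 25.8% higher and 26.5% lower for line 113, 27.5% and 29.4% for line 119, and 23.8% and 26.1% for line 112. Line 112 was lower than line 113 at 17 and higher at 1, against 15.6% and 8.24%, and the chromosome offset gave the same counts of 17 and 1. The median log2 differences of gene-end regions within 5 Mb of Sox6 were 0.01, -0.59 and -0.59 for lines 113, 119 and 112 against line 73, beside -0.01, -0.70 and -0.50 over all chromosomes. Peaks in every line but line 73 were called at 10 of 50 regions (20%), against 6.48% of all tested regions.

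The log2 ratio of the Sox5 to the Sox6 total was 2.05 and 2.13 in line 112, 0.77 and 0.82 for line 113, 1.06 and 0.92 in line 119, and 2.06 and 2.24 for line 73. Lines 112 and 73 overlapped at the high end, and lines 113 and 119 lay lower. The span of line means was 1.36 (2.56-fold), and the exact permutation test gave p 0.019 (two-sided, 105 assignments). With the chromosome offset the line means were 1.52, 0.99, 1.53 and 2.03 for lines 112, 113, 119 and 73. Only the low value of line 113 and the high value of line 73 then kept their places. With the planned regional offset the means were 1.09, 1.05, 1.67 and 2.18. Lines 112 and 113 then overlapped at the low end, and line 73 stayed highest. Per kb of region, Sox5 stood at 20.5, 12.7, 12.6 and 6.12 CPM per kb and Sox6 at 8.15, 12.4, 10.7 and 2.33 CPM per kb in the same lines. On that scale the SoxD genes were near each other in lines 113 and 119.

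Sox2 was open in line 119, intermediate in line 113 and low in lines 112 and 73. Its total was 11.7 and 20.6 CPM in line 112, 35.8 and 36.2 for line 113, 104 and 104 in line 119, and 11.3 and 10.6 for line 73. Line 119 exceeded line 73 by 3.24 (SE 0.17, edgeR adjusted p 1.57e-13). Line 112 was below line 119 by a log2 of -2.74 (SE 0.17, 1.06e-11) as counted and by -1.4 (SE 0.19, 4.03e-07) with the regional offset. Line 113 was also below line 119 (-1.53, SE 0.14, 2.19e-09). Lines 112 and 73 did not differ beyond their spread (0.50, SE 0.25, 0.0897), but line 112 was higher by 0.92 with the chromosome offset (SE 0.26, 0.00409), by 1.49 with the regional offset (SE 0.26, 1.38e-05) and by 0.92 without its replicate 1 (SE 0.26, 0.00402). Line 112 was below line 113 by a log2 of -1.21 (SE 0.20, 4.21e-05) as counted and by -0.11 (SE 0.21, 0.707) with the regional offset. At 53 gene-end regions within 5 Mb of Sox2 the median log2 difference of line 112 was -1.46 to line 113 and -0.99 to line 119. Over all chromosomes these medians were -0.44 and 0.17.

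The promoter of Sox2 carried this order. Sox2 lies at chr3:34649995-34652461. The region that holds the promoter sequence above (34649612-34650174) had 1.40 and 2.15 CPM in line 112, 15.9 and 12.6 for line 113, 29.6 and 30.9 in line 119, and 1.79 and 2.78 for line 73. Line 112 was below line 119 by a log2 of -4.11 (SE 0.34, adjusted p 2.1e-14). The next region inside the gene, 34650784-34651488, had 1.86 and 4.62, 9.97 and 9.19, 11.9 and 12.8, and 2.05 and 2.22 CPM. At 34664113-34664819, 11652 bp above the gene, line 119 stood alone with 21.6 and 20.9 CPM, against 0.931 to 4.84 CPM elsewhere. At 31322 bp below the gene, 34618152-34618673 had 9.05 and 7.94 CPM in line 119, 2.72 and 5.32 for line 113, 3.49 and 2.15 in line 112, and 0.512 and 0.833 for line 73.

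Line 119 was highest at all 6 tested Sox2 regions, against 26.3% of all tested regions. Line 119 exceeded line 73 at 6 of 6 and line 112 at 6 of 6. It exceeded line 113 at 5 of 6. With the chromosome offset these counts were 5, 5 and 5, and with the regional offset 5, 2 and 5. Over all tested regions, without an offset, line 119 was higher than line 73 at 27.5%, than line 112 at 23.5% and than line 113 at 28.8%. Neither line 112 nor line 73 had a peak call at any of the 6 regions, where 26.5% and 43.3% of all tested regions had one in at least 1 library. Line 113 had peaks in both libraries at 2 regions and line 119 at 5. Over all tested regions, 12.7% had peaks in both libraries of line 112, 29.5% of line 113, 52.3% of line 119 and 31.4% of line 73, so line 119 had the most by this measure in general. The seventh region, 11634 bp below the gene, had 0.256 to 2.36 CPM, was below the filter and was not tested.

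Summed over each gene, 23 of the 30 comparisons of 2 lines were called. Over 17373 protein-coding genes with locus totals, 40.6% were called for line 112 against 113, 58.3% for 119 against 73, 48.5% for 112 against 119, 51.9% for 112 against 73, 60.0% for 113 against 119 and 52.1% for 113 against 73. The count for the SOX genes is read against these shares. By region, the 166 tested regions were split 42 higher and 23 lower for line 112 against 113, 72 and 16 for 119 against 73, 69 and 34 for 112 against 119, 98 and 12 for 112 against 73, 66 and 41 for 113 against 119, and 91 and 26 for 113 against 73. The regional offset changed these splits to 3 and 53, 85 and 7, 18 and 69, 75 and 27, 45 and 56, and 89 and 27. The chromosome offset gave 10 and 39 for line 112 against 113 and 43 and 52 for line 112 against 119. Total counts as library sizes, which shift log2 values of line 112 against 113 by 0.33, gave 63 and 14 there. They shift those of 112 against 73 by 0.33, of 119 against 73 by 0.20, of 112 against 119 by 0.14 and of 113 against 119 by -0.20. The shares of all regions called with the offsets or with total counts are not given here.

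The design of the study compares knockout with wild type, and the genotype was varied between lines. With the line as the unit, 0 of 166 regions passed in edgeR, and 0% of all 140329 tested regions did. At an unadjusted p under 0.05 there were 44 of the 166, among them 34 of Sox5, 8 of Sox6 and 2 of Sox9. Over all tested regions 16.9% were under that p. DESeq2 called 12 of the 166 and limma-voom called 0. The share of all regions that DESeq2 called is not given here, so the 12 are not read as a result about these genes. The region with the smallest p was 144098100-144098648 of Sox5, with a log2 fold change of 4.60 (SE 0.97, adjusted p 0.143). Of the locus totals, 0 of 5 passed, against 12 of 17373 genes (0.0691%). The Sox9 total was lower in the knockout (log2 -1.07, SE 0.31, p 0.00578) but did not pass after adjustment (adjusted p 0.22). Its mean was 60.3 ± 8.23 CPM over the knockout lines and 124 ± 3.18 CPM over the wild-type lines (SD, n = 2 lines each), with the same direction in all 4 pairs of lines. The log2 differences were 1.02 (SE 0.76) at Sox10, 0.81 (SE 0.42) at Sox5, 0.65 (SE 0.76) at Sox6 and -1.18 (SE 1.1) at Sox2, with adjusted p from 0.604 to 0.913. Here the wild-type lines differed from each other more than the genotypes did. That at Sox5 was -0.31 (SE 0.56) with the regional offset.

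Separated regions are those at which each knockout line differed from each wild-type line, in 1 direction throughout the 4 tests. This describes these lines and does not single out the genotype. There were 39 separated regions higher in the knockout lines and 6 lower, where 7.64% of all tested regions were separated higher and 7.41% lower. Sox5 held 33 of the higher and 4 of the lower, spread over 810 kb and 826 kb. The span of the higher ones ended outside the gene, at 144791087. Sox6 held 4 higher, Sox10 held 2 higher, Sox9 held 2 lower and Sox2 held none (0 of 6). The split of 39 and 6 was 26 and 10 with the chromosome offset, 9 and 16 with the regional offset, and 4 and 2 among regions with a mean of at least 50 counts. Sox5 accounted for most of the shift, with 19 and 8 and with 5 and 13 under the chromosome and the regional offset. The shares of all regions separated under these settings are not given here. The counts under them are therefore not read as a result about these genes.

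At Sox10 the separated regions were that at the gene end and 79175198-79175767. The latter had 8.61 and 12.0 CPM in line 112, 5.66 and 9.68 for line 113, 3.62 and 5.57 in line 119 and 2.82 and 1.94 for line 73. At Sox9 they were the region at the gene start and 112794653-112795208, both lower in the knockout. The 4 of Sox6 lay in the far part of the gene and beyond it. Among them 115431486-115432139 had 9.78 and 6.16, 9.51 and 10.4, 0.388 and 2.19, and 1.28 and 1.39 CPM in lines 112, 113, 119 and 73, and 115551777-115552277 had 1.54 to 3.96 CPM in the knockout and 0.256 to 0.556 CPM in the wild-type libraries. The strong internal promoter of Sox6 was not among them, and lines 119 and 112 overlapped there.

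**Figure D5:**
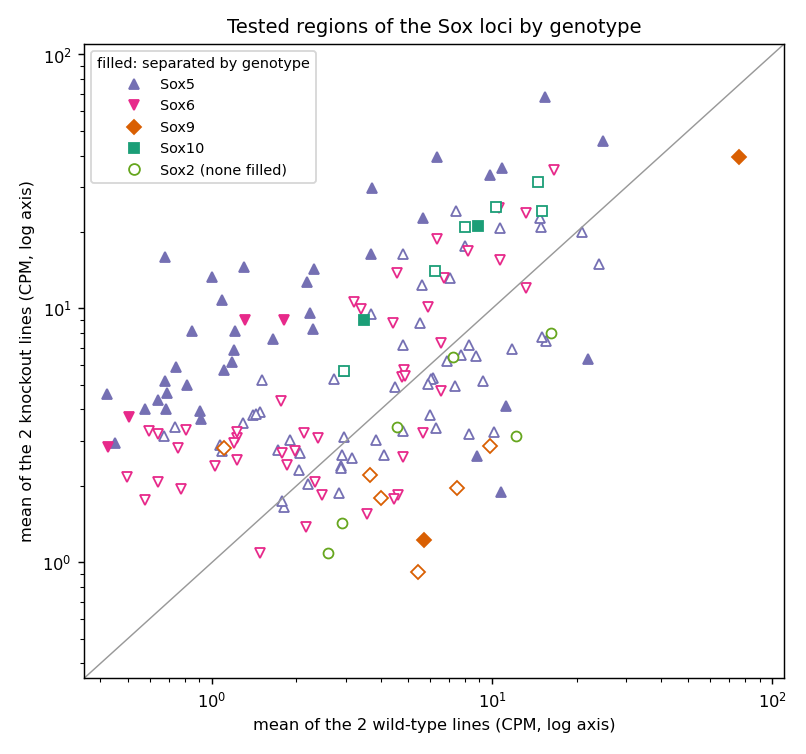
Mean accessibility of the wild-type lines (x) and of the knockout lines (y) at each of the 166 tested regions (CPM, log axes), by gene; filled symbols are separated by genotype and the line marks equal values. Of the filled symbols 39 lie above the line and 6 below it, and most of those above are of Sox5.

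The genes whose locus totals followed each SOX gene most closely over the 8 libraries were ranked by Pearson's r of log2 CPM among 14777 genes with a mean of at least 10 CPM. The points share 4 lines of 2 libraries each. For Sox10 these were Mc1r, the melanocortin receptor of melanocytes (r 0.996), Polr2f (0.996), a neighbour on chromosome 15, Notch1 (0.995), Nck2 (0.994) and Pdzrn3 (0.994). Mc1r had 57.7 to 70.6 CPM in lines 112, 113 and 119 and 22.7 and 20.5 CPM in line 73. For Sox9 they were Dpp4, Olfr432 and Htra1 (0.994 each), 1700011L22Rik and Nadsyn1 (0.993 each). For Sox5 they were Npy (0.997), Foxp2 (0.996), Lrrtm4 (0.992) and Ggct (0.991), all on chromosome 6 like Sox5 itself, and Slc6a9 (0.990) on chromosome 4. For Sox6 the first were Kcnk13 (0.999), Adamts3 (0.998), Dgkb (0.997) and Hunk (0.996). The highest for Sox2 included Cadps (0.985), C1qtnf7 (0.984) and Jph4 (0.984). Between the SOX genes themselves, Sox10 had r 0.94 with Sox6, 0.91 with Sox5 and -0.66 with Sox9, and Sox5 had 0.77 with Sox6.

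Genes that Sox10 is known to act on were mostly more accessible in the lines with an open Sox10. The list held Mitf, Dct, Tyr, Tyrp1, Mia, Erbb3, Ednrb, Mbp, Gjb1, Ret, S100b and Pou3f1, of which 11 of 12 were tested (Mia had no region). Against line 73, 10 were higher and 1 lower in line 112 (median log2 1.25), where 26.5% of all genes were higher and 25.4% lower. In line 113, 8 were higher and 2 lower (median 1.39), where 26.8% were higher and 25.3% lower. In line 119, 8 were higher and 0 lower (median 1.25), where 28.3% were higher and 30.0% lower. The medians over all genes were -0.02, 0.03 and -0.07. Totals of these and the following lists are on the locus scaling, whose shift is given above. The endothelin receptor gene Ednrb had 100 and 100 CPM in line 112, 175 and 169 for line 113, 124 and 114 in line 119 and 8.86 and 6.66 for line 73. The tyrosinase gene Tyr had 112 and 79.7, 130 and 106, 75.6 and 73.2, and 7.63 and 7.22 CPM. Mitf did not follow Sox10 in line 119, with 241 and 233 CPM there against 216 and 234 in line 73 (adjusted p 0.536) and 417 to 463 CPM in the knockout libraries. The myelin gene Mbp was lower in lines 112 and 113 than in line 73.

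The cartilage genes that Sox9 is known to activate did not have the order of Sox9. Against line 73, 26.5% of all genes were higher and 25.4% lower in line 112. The shares were 26.8% and 25.3% in line 113, and 28.3% and 30.0% in line 119. Of the 10 on the list, all tested, 8 were higher and 0 lower in line 112 than in line 73 (median 1.39), 6 higher and 1 lower in line 113 (median 0.77) and 6 higher and 1 lower in line 119 (median 0.58). The collagen gene Col9a1 had 135 and 114 CPM in line 112, 119 and 98.0 for line 113, 60.5 and 53.0 in line 119 and 13.5 and 17.2 for line 73. Col2a1 had 76.9 and 80.9, 32.8 and 34.4, 86.1 and 78.6, and 54.9 and 65.0 CPM, and was lower in line 113 than in line 73.

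The other 14 SOX genes, of which 13 were tested (Sox17 had no region), showed 7 higher and 1 lower in line 112 than in line 73 (median 0.68), 5 higher and 2 lower in line 113 (median 0.14), and 10 higher and 0 lower in line 119 (median 0.79). Over all genes the shares higher and lower than line 73 were 26.5% and 25.4% in line 112. They were 26.8% and 25.3% in line 113, and 28.3% and 30.0% in line 119. Sox8, the third SoxE gene, had 23.8 and 37.2, 11 and 12.1, 24.1 and 26.7, and 20.4 and 15.5 CPM in lines 112, 113, 119 and 73. Sox13, the third SoxD gene, had 56.2 and 75.6, 72.8 and 69.1, 92.9 and 95.2, and 66.7 and 52.2 CPM. Neither had the drop in line 73 seen at Sox10 and Sox6. The SoxB1 gene Sox3 did, with 11.2 and 17.4, 28.3 and 30.4, 26.4 and 21.0, and 0.985 and 2.50 CPM. Sox11, of the SoxC group, had 114 and 110, 130 and 132, 53.8 and 44.8, and 18 and 13 CPM.

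Of 12 other factors of the neural crest and melanocytes, 7 were higher and 2 lower in line 112 than in line 73 (median 0.60), 6 higher and 1 lower in line 113 (median 0.63) and 8 higher and 1 lower in line 119 (median 0.41). Foxd3, a factor of early neural crest, had 86.9 and 82.9, 63.4 and 68.6, 106 and 108, and 11.6 and 16.4 CPM, and Pax3, which acts with Sox10 on Mitf, had 336 and 316, 412 and 402, 236 and 217, and 94.5 and 98.3 CPM. Both were lowest in line 73, like Sox10. The melanocyte markers were higher than line 73 for 9 of 10 in line 112 (median 2.1) and 10 of 10 for line 113 (2.44). In line 119 it was 5 of 10 (0.46), and 0 were lower in each of these lines. For both lists the shares of all genes higher and lower were 26.5% and 25.4% in line 112. They were 26.8% and 25.3% for line 113, and 28.3% and 30.0% in line 119.

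Among markers of other cells, those of fibroblasts were mostly lower in lines 112, 113 and 119 than in line 73. Of 8 fibroblast markers, 5 were lower and 1 higher in line 112 than in line 73 (median -0.81), 7 lower and 1 higher in line 113 (-1.78) and 6 lower and 2 higher in line 119 (-0.85). Their summed accessibility was 479 and 541 CPM in line 112, 270 and 285 for line 113, 532 and 518 in line 119 and 809 and 765 for line 73, highest where Sox10 was lowest. Immune markers summed to 83.0 to 126 CPM in the knockout and 149 to 172 CPM in the wild-type libraries, with Cd3g and Cd79a lacking a region. Of 8 tested, 1 was higher and 2 lower in line 112 than in line 73, 1 and 3 for line 113, and 4 and 1 in line 119. Endothelial markers summed to 162 to 230 CPM and 241 to 260 CPM. Of these 6, 1 was higher and 3 lower in line 112, 1 and 5 for line 113, and 1 and 3 in line 119. Keratinocyte markers summed to 155 to 181 CPM in the knockout and 131 to 168 CPM in the wild type, and 1 of 7 was higher and 1 lower in line 112, 2 and 3 for line 113, and 1 and 1 in line 119. Beside the counts of these lists, 26.5% of all genes were higher and 25.4% lower in line 112 than in line 73. The shares were 26.8% and 25.3% for line 113, and 28.3% and 30.0% in line 119. The part of such cells in the values of the SOX genes was not tested.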

How the data were processed

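The 8 ATAC-seq libraries came with a table of raw counts that the authors deposited for 148664 regions. Per the submitters' processing notes, Bowtie2 2.2.4, Picard 1.118 and MACS2 2.1.1.20160309 were used with mm10/GRCm38, in roles not given there. What was counted (reads, fragments or cuts), the removal of duplicates and any shift for the transposase are not given in the sources used here. Peak lists per library were deposited too, in which the authors give each peak a score, its fold enrichment as a ratio, and −log10 values of its p and q. Only the presence of a peak overlapping a region by at least 1 bp was used. The count table had 0 columns of other samples.

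The SOX genes and all gene lists were chosen with earlier results of these data known. Regions were assigned to 21883 protein-coding genes of GRCm38.p6, whose table gives no strand. This placed 120110 regions (80.8%), and their sum per gene was its locus total. Filtering was filterByExpr (minimum count 10, minimum total 15), which kept 140329 regions, and scaling was TMM, computed separately on regions and on locus totals. Totals were refitted with the factors of the regions, an alternative added after seeing the data. edgeR 4.0.16 (glmQLFit with robust estimation, glmQLFTest, two-sided, R 4.3.3) compared pairs of lines in 1 fit of 8 libraries, and genotypes on counts summed per line, with Benjamini-Hochberg adjustment over all regions or genes tested and a threshold of 0.05. The files hold counts as planned, so these tests were run as designed. Ratios used 0.5 added to each count. The regional offset, planned, was the median level of weak regions in windows of 10 Mb relative to the mean of the lines. The chromosome offset, the same per chromosome without the regions of the SOX genes, was added after seeing the data. Alternatives used DESeq2 1.42.0 and limma 3.58.1. Simulated counts were used to check the fits.

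For each gene the text names the strongest region within 1 kb of a transcription start (of a gene end where no strand is known), the 3 strongest others, the 3 with the smallest p of any difference between lines, the 2 with the smallest p of the genotype test, and the 5 genes most like it in rank. Some genes of this ranking and of the list of Sox10 targets are not reported here, and the list's counts leave them out. Other regions are said to be chosen after their values were seen.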

Additional observations from a re-analysis of the deposited data

Results flagged for a closer look

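Among 72 groups of 4 libraries tested, 2 held a library far from the other 3 by Dixon's criterion, which chance meets in about 1 of 20 groups. The Sox9 total of line 119 replicate 2 was 117 CPM, while the other wild-type libraries had 126 to 127 CPM. The Sox2 region 34619569-34620114 had 1.54 CPM in line 112 replicate 2, while the other knockout libraries had 0.906 to 0.968 CPM.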

How the results depend on the processing

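The Sox10 over Sox9 and Sox5 over Sox6 ratios kept an exact permutation p of at most 0.0286 under every alternative that gave one. Leaving out 1 library moved the span of line means from 3.64 to 4.00 for Sox10 over Sox9 and from 1.3 to 1.44 for Sox5 over Sox6, without a test. The strongest region near the start could not be used for Sox5 over Sox6. The genotype test of regions made 12 calls (all higher in the knockout) with DESeq2 and 1 with peak-called regions only. It made 0 to 1 without 1 library (1 without line 112 replicate 1). With libraries as units it made 54 calls, and 40 with the replicate block added. Fits with libraries as units count the replicates of a line as independent. As genotype varied between lines, they do not test the genotype. The shares of all regions called by these alternatives are not given here. At least 50 counts on average left 21 calls for line 112 against 113 (16 higher, 5 lower), 29 for 119 against 73 (28, 1), 20 for 112 against 119, 27 for 112 against 73, 15 for 113 against 119 (6, 9), 31 for 113 against 73 and 6 separated regions, fewer regions being tested. DESeq2 gave 33 (18, 15) for line 112 against 113 and the regional offset 25 separated regions. Without 1 library the calls ranged from 38 (without line 113 replicate 1) to 61 for line 112 against 113, from 73 to 92 for 119 against 73, and from 34 to 48 for separated regions.

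Of 605 refits of locus totals, 564 kept direction and side of the threshold, 3 lost and 13 gained the call, and 25 reversed. With the factors of the regions, an alternative added after seeing the data, 27 totals were called in place of 23, and Sox10 (-0.15) and Sox9 (-0.04) reversed for line 112 against 113. Reversals with the regional offset were Sox10 112 against 113 (-0.08), Sox9 119 against 73 (0.40), Sox5 112 against 113 (-0.45), 112 against 119 (-1.16), 113 against 119 (-0.72) and knockout against wild type (-0.31), and Sox6 113 against 119 (-0.09). With the chromosome offset they were Sox9 119 against 73 (0.16) and Sox5 112 against 113 (-0.07), 112 against 119 (-0.44) and 113 against 119 (-0.36). Sox9 112 against 113 was -0.01 within 10 kb, and 119 against 73 was 0.04 without line 119 replicate 2. Sox5 113 against 119 was 0.01 as reported, -0.06 with DESeq2 size factors or its Wald test, -0.04 with peak-called regions only, -0.09 within 10 kb, and -0.12 to 0.03 without 1 library, below 0 in 6 fits. The cause of these changes was not tested. Of 474 refits of named regions, 472 kept both and 2 lost the call. The deviations of same-numbered replicates correlated between -0.0367 and 0.00386, so the numbers did not pair the libraries. The replicate block left 64 calls for line 112 against 113, 85 for 119 against 73, 102 for 112 against 119, 110 for 112 against 73, 107 for 113 against 119, 117 for 113 against 73, 45 separated regions and 23 locus totals. Depth limits the weak regions, where counts of a few reads decide a CPM under 1.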
